A study of Mus musculus with 6 samples.

Results

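The block described here is a run of 80 protein-coding genes at the start of mouse chromosome 1, whose RNA was on balance lower in both ICB-resistant clones of the CT26 tumour line than in the parental cells. Its members are the protein-coding genes that start within chr1:4773206-43098637 (mm10, GENCODE M21 coordinates), apart from Mcm3, Prim2, Imp4, Il1r1 and Il1rl1, and that have a mean normalised count of at least 10 over the 6 libraries. The range was selected on measured values, namely the log2 fold changes of clones B04 and B64 against the parental cells, so the values of its members in those comparisons are given as a description and without a test. Of the 170 protein-coding genes that start in the range, 5 were left out by the rule and 85 were under the minimum, 56 of the 170 being listed at 0 in every library. The 80 members were among 10948 protein-coding genes of the genome that reached the same minimum.

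CT26 is an undifferentiated colon carcinoma line of BALBc mice that is widely used to study immune checkpoint blockade (ICB). The study sequenced poly(A)-selected RNA from 3 groups with 2 libraries each, replicates A and B. The groups were the parental CT26 line, a mixed barcoded population passed through mice, and the clones B04 and B64, each a line grown from a single cell of a barcoded tumour and described by the submitters as resistant to ICB. All were grown in RPMI medium without treatment. The labels call the material tumour, whereas the study's methods describe cultured lines, and each clone group is 1 clone, so that what is common to ICB resistance and what is particular to a clone cannot be told apart. Nothing says that replicates came from separate cultures, and the p-values below therefore measure only the spread between these libraries.

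Total estimated counts ran from 19409204 to 23472012 per library, and 10970 to 11208 genes reached 1 TPM. The mean fragment length implied by the RSEM lengths differed: parental libraries had 276.6 to 277.3 bases and B04 replicate A 271.8, whereas shorter fragments of 225.2 bases were found for B04 replicate B, and B64 had 220.8 and 246.2. Markers of other cell types were low: Ptprc, the pan-leukocyte marker, was at most 0.01 TPM, and the summed endothelial and erythroid lists reached at most 0.09 and 2.3 TPM. The leukocyte sum, nearly all of it from Cd68, was 39.74 and 36.11 TPM in B64 and 10.11 to 12.02 TPM elsewhere, and the fibroblast sum was 3.27 and 5.2 TPM in B64 against 11.47 to 13.51 TPM in the other libraries. The part of these marker differences in the results below was not tested. The epithelial markers Epcam and Cdh1 were at most 0.06 TPM and Vil1 was listed at 0, while Krt18 and Krt20 were present at 12.31 to 22.44 and 9.01 to 25.21 TPM.

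Genes that lie next to each other on a mammalian chromosome mostly serve unrelated functions, so a block defined by position holds members of many pathways. Mouse chromosomes carry the centromere at their end, and the low coordinates of chromosome 1 are the centromeric side. Several members encode single subunits of larger machines whose other subunits are encoded elsewhere, such as ribosomes, the COP9 signalosome and the vacuolar proton pump. These partners were not used to choose the block.

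Neighbouring members often shared their start region. In 6 pairs the members were transcribed away from each other from starts at most 409 bases apart or overlapping. RefSeq promoter windows of 300 bases around an annotated start (GRCm38.p6) were found for 47 of the 80 members, 65 windows in all. For 33 members there was none in the source used. These include all of the first 26 members, Mrpl15 to Ly96, so the windows describe the block only from Tram2 on. Shown are the shared region of Coa5 and Unc50, whose annotated starts are 36 bases apart, and the windows of the most lowered member, Mgat4a, and of the member called higher in B64, Hs6st1. Each is printed 5′ to 3′ on the strand of its gene, with the GC box GGGCGG (or its complement CCGCCC) and the CCAAT box in capitals. The Coa5 window (chr1:37430054-37430353, minus strand) and the Unc50 window (chr1:37429889-37430188, plus strand) share 135 bases, read on opposite strands, and Mgat4a lies at chr1:37540967-37541266 on the minus strand and Hs6st1 at chr1:36068150-36068449 on the plus strand.
Coa5: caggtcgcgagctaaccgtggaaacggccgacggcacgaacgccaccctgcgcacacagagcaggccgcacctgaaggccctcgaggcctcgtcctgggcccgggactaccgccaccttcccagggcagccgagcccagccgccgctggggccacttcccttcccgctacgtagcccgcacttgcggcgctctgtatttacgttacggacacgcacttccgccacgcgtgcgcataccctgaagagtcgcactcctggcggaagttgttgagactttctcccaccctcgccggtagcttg
Unc50: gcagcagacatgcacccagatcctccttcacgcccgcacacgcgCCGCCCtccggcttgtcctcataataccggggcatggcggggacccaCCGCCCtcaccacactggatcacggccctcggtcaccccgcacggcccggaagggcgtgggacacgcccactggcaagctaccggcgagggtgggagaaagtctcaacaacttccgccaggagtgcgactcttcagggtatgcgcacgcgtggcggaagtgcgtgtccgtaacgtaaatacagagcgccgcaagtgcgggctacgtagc
Mgat4a: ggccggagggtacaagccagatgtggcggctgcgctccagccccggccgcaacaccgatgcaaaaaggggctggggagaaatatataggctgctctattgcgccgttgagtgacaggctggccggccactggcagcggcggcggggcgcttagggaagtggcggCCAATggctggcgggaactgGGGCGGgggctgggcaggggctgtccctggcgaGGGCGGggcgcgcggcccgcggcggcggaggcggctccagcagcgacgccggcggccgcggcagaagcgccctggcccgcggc
Hs6st1: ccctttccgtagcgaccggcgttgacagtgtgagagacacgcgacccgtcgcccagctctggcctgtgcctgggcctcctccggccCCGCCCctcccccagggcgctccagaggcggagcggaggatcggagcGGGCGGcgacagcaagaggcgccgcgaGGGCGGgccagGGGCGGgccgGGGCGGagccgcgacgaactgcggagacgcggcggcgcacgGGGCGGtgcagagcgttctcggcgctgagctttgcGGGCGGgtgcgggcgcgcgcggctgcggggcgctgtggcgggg
The Coa5 window held none of the 4 motifs searched, the Unc50 window held GC boxes outside the shared stretch, and the Hs6st1 window held several. Mgat4a had GC boxes and a CCAAT box, and a second annotated start of this gene lay in a window with few CpG.

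The 65 windows cover only members from Tram2 on. In them GC boxes were about as frequent as in expressed genes, and CCAAT boxes were found in a smaller share. GGGCGG, searched on both strands like the other motifs, was in 43 of the members' windows (66.2%), in 7098 of 11085 windows of protein-coding genes at the same count minimum, and in 35.7% of all 32851 windows in the table. CACGTG, the E-box, was in 13.8%, 10.1% and 7.15% of these sets, and TATAAA in 6.15%, 6.62% and 13.6%. CCAAT was in 24.6% of the members' windows against 38.5% and 37.4%. The median number of CpG per window was 26 in the members' windows, 21 in expressed genes and 7 in all windows. These shares are descriptions of windows that overlap within genes and gene pairs, and no match in a window says only that the letters are not there.

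Both clones had less RNA from the block as a whole. The share of all counts taken by the members was 0.713% and 0.706% for parental cells, 0.567% and 0.566% for B04, and 0.594% and 0.587% for B64, so that every clone library lay under both parental libraries. The median log2 fold change of the 80 members was -0.32 in B04, a fold of 0.799, with quartiles of -0.48 and -0.16. In B64 it was -0.25, a fold of 0.840, with quartiles of -0.40 and -0.14. Over all 12855 genes tested the median was 0.00 in each clone. In these bulk libraries fewer cells that express a gene and less RNA per cell cannot be told apart.

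The shift was broad and small rather than carried by a few genes. In B04 71 of the 80 members were below 0, and in B64 73 were, with 66 below 0 in both clones, 2 above 0 in both and 12 in opposite directions. The medians of single libraries against the parental mean were -0.31 and -0.36 in B04 and -0.27 and -0.25 in B64, while the parental libraries stood at 0.01 and -0.01. All 4 clone libraries lay under both parental libraries for 50 of the 80 members, against 17.5% of all 10948 genes at the same minimum, and all 4 lay above for 1 member, against 16.0%. The rule used these contrasts, so nothing is read from the counts. The parental libraries are shared by both comparisons.

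**Figure D1:**
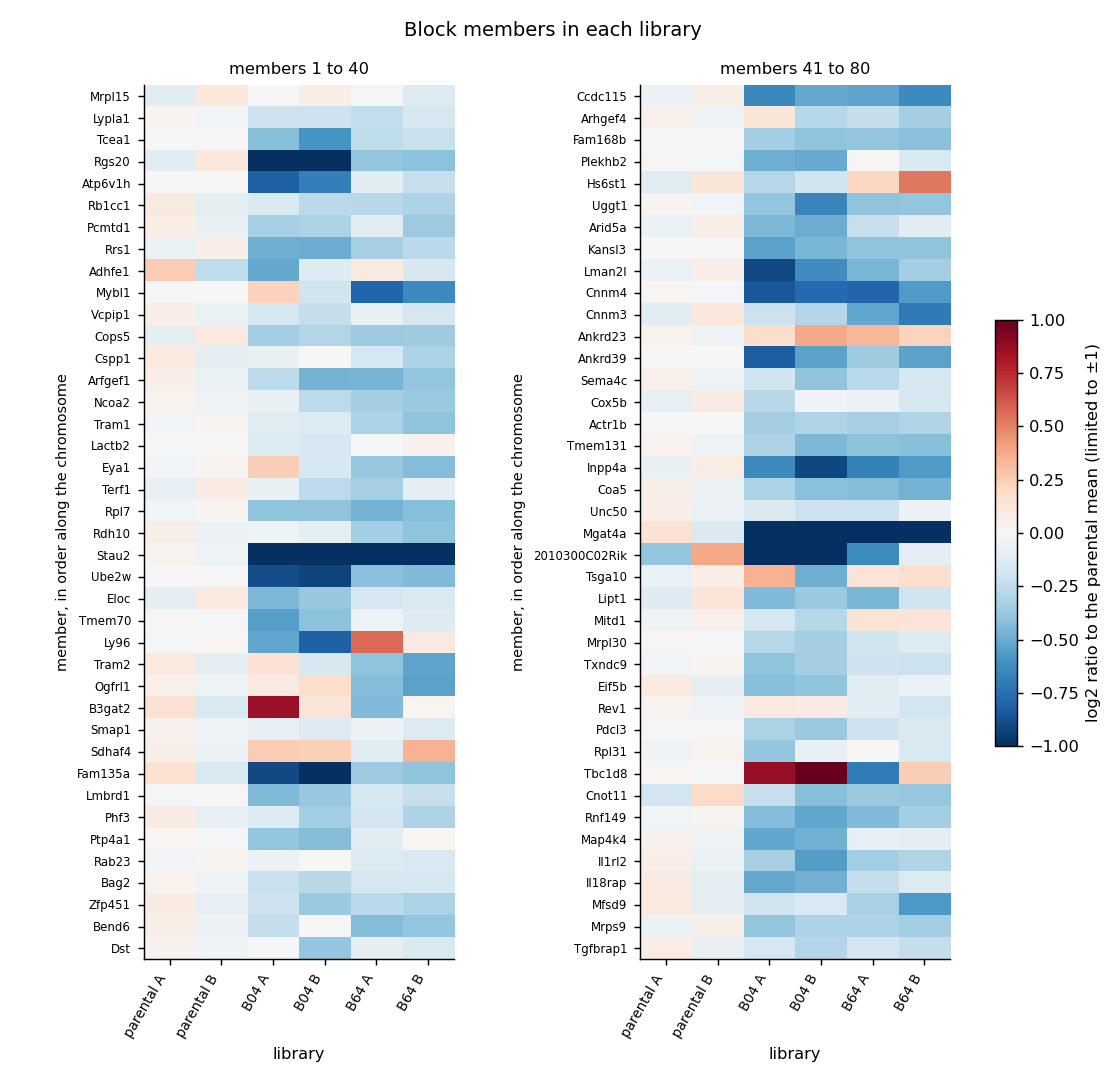
Heat map of the 80 members in order along the chromosome (rows) in the 6 libraries (columns), as the log2 ratio of the normalised count (plus 0.5) to the parental mean, limited to ±1. Most rows are blue in all 4 clone columns, and 50 members were under both parental libraries in all of them.

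With adjusted p from DESeq2 over all genes, 40 members were called lower and 0 higher in B04, where 13.4% of the tested genes were called lower and 11.6% higher. In B64 27 members were called lower and 1, Hs6st1, higher, where 7.69% were called lower and 9.16% higher. The 27 fell to 15 without parental replicate B or B64 replicate A and to 17 without B64 replicate B, and the higher call of Hs6st1 was lost without parental replicate A, without B64 replicate B, with effective lengths as an offset and with limma. With limma on log2(TPM + 1) 22 members were called lower in B04 and 13 in B64. These counts describe how the block was found and are not evidence about it. The 69 members with a mean count of at least 100 had medians of -0.32 and -0.25, as the whole block did. At the minimum count, the members just inside were B3gat2 and 2010300C02Rik with mean counts of 12.1 and 14.9, and the genes just outside were Fer1l5 and Cnga3 with 4.0 and 3.47.

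The 5 genes that the rule leaves out differed among themselves. Imp4, a factor of ribosomal RNA processing, had log2 fold changes of -0.62 ± 0.08 (SE) in B04 and -0.44 ± 0.08 in B64. The interleukin receptor genes Il1r1 and Il1rl1 had -0.27 and -0.30 in B04 and -0.23 and -0.53 in B64. The replication genes Mcm3 and Prim2 had 0.10 and 0.21 in B04 and -0.23 and -0.10 in B64. The 15 non-coding genes and pseudogenes of the range with the same minimum had medians of 0.14 and 0.00, and 7 of them are unprocessed pseudogenes in 1 cluster, whose reads may be shared with near-identical copies elsewhere.

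Lowered values did not stop at the end of the range. The next genes were AI597479 at -0.25 and -0.29 in B04 and B64, Fhl2 at -0.53 and -0.14, and Nck2 at -0.42 and -0.31. In consecutive windows of 40 further genes, a description laid out after the values were seen, the medians were -0.26 and -0.31 in the first, -0.29 and -0.32 in the second, -0.18 and -0.20 in the third, -0.35 and -0.23 in the fourth and -0.21 and -0.17 in the fifth, which ends with a gene starting at 93168725. From the sixth window on, the medians lay between -0.08 and 0.14 in B04 and between -0.10 and 0.17 in B64. The range of the rule thus held only the first part of a longer stretch with lowered medians, and no step was seen at its end. Chromosome 1 as a whole had medians of -0.12 and -0.10 over 623 genes, and the 9992 genes of the other autosomes had -0.00 and -0.01. Single autosomes departed from that pooled median. Chromosome 3 had -0.18 in B04 and -0.02 in B64 over 535 genes, and chromosome 15 had 0.18 and 0.06 over 443. A shifted chromosome median in B04 was thus not particular to chromosome 1.

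**Figure D2:**
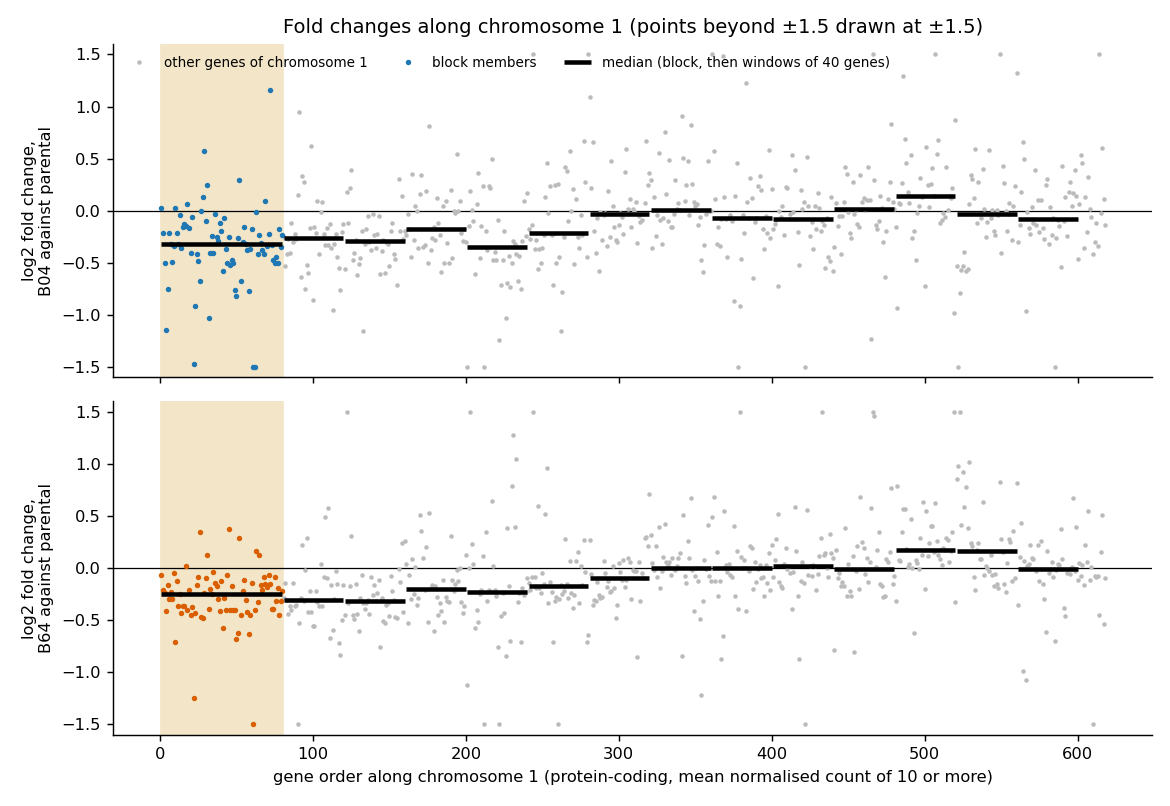
Log2 fold change of each gene against its order along chromosome 1, for B04 (top) and B64 (bottom), with members coloured on the shaded background, other genes in grey and black bars for the medians of the block and of each window of 40 genes. The bars stay below 0 through the fifth window after the block, and lie within 0.17 of 0 after it.

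Inside the block the shift was present in each stretch of 10 members. The medians of the 8 consecutive stretches ran from -0.50 to -0.17 in B04 and from -0.40 to -0.17 in B64. The fifth, from Ccdc115 to Cnnm4, was the lowest in both clones. Over the 80 members the fold change had a Spearman rho with position of -0.12 in B04 and 0.04 in B64, and with mean count of -0.19 and 0.17. With exonic length rho was -0.02 in B04 and -0.33 in B64, and with exonic GC content -0.03 and -0.09. Genes of 1 library share its depth and fragment length, and these values are descriptions across genes. The members had a median GC content of 47.3% and length of 2843 bases, against 50.7% and 2446 over the 10948 genes.

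Mgat4a, which encodes a glycosyltransferase that branches N-linked glycans, was the most lowered member. It had normalised counts of 185 and 152 for parental cells, against 5.47 and 10.2 for B04 and 10.2 and 15.8 for B64. The level was 1.35 ± 0.31 TPM (SD, n = 2) in parental cells, 0.085 ± 0.035 in B04 and 0.125 ± 0.064 in B64. The log2 fold changes were -4.45 ± 0.50 (SE) and -3.69 ± 0.46, resting on 6 to 15 estimated counts per clone library. No clone library came near the parental values. The members just before it, Coa5 and Unc50, moved far less, with -0.37 and -0.18 in B04 and -0.45 and -0.14 in B64. The member just after it, 2010300C02Rik, had -1.96 ± 0.84 (SE) in B04 and -0.40 ± 0.77 in B64. It had few counts, with a mean of 14.9, and was called in neither clone.

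Stau2, a double-stranded RNA-binding protein of RNA transport, was the most lowered member with a mean count over 100. Its normalised counts were 555 and 527 in parental cells, 178 and 215 in B04, and 219 and 236 in B64, a log2 fold change of -1.47 ± 0.17 (SE) and -1.25 ± 0.17. The clones did not overlap the parental libraries. Cnnm4, a magnesium transport protein, went from 1167 and 1130 to 637 and 668 in B04 and to 661 and 774 in B64. Ccdc115, an assembly factor of the vacuolar proton pump, went from 591 and 640 to 394 and 432 in B04 and to 426 and 395 in B64. Inpp4a, a phosphoinositide phosphatase, went from 176 and 196 to 119 and 98.7 in B04 and to 116 and 125 in B64. In these 3 genes both clones were lowered by similar amounts. At fold 0.5 or less stood 5 members in B04 and 2 in B64, Mgat4a and Stau2 in both.

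The highest members with a mean count of at least 100 stood near or above the parental level. Sdhaf4, an assembly factor of succinate dehydrogenase, had 152 and 140 in parental cells, 174 and 172 in B04, and 134 and 186 in B64, so that B64 overlapped the parental libraries. Mrpl15, a mitochondrial ribosomal protein and the first gene of the block, had 1005 and 1161, then 1076 and 1134, then 1067 and 989. Rev1, a translesion DNA polymerase, had 631 and 598, then 659 and 651, then 567 and 539. None of these genes had a clone more than 0.25 from the parental cells on the log2 scale. The last members, Mrps9 and Tgfbrap1, had -0.35 and -0.23 in B04 and -0.32 and -0.22 in B64, and the second, Lypla1, had -0.21 in both.

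Genes of translation were lowered along with the rest. Of 10 members listed under translation and RNA handling, 9 were below 0 in B04 and 10 in B64, with medians of -0.34 and -0.27. Pcmtd1, named for a methyltransferase domain, was placed in this list too, at -0.32 and -0.23. Rpl7, a protein of the large ribosomal subunit, had the highest counts of the block, 26445 and 27577 in parental cells, 20415 and 20383 in B04, and 19485 and 20127 in B64. Its log2 fold changes of -0.41 and -0.45 each had an SE of 0.05. Rpl31, of the same subunit, had -0.22 ± 0.14 and -0.07 ± 0.14, with 12741 to 16625 in the clones against 16247 and 16994, so that the B64 libraries overlapped the parental ones. These values of Rpl31 depended on the treatment of lengths. With effective lengths as an offset they were -0.37 in B04 and -0.27 in B64, and both were called. With limma on log2(TPM + 1) they were -0.29 and -0.23, without a call. The cause was not tested. Ribosomal protein genes have many processed pseudogenes, and their counts depend on how shared reads were split. The 8 members listed under mitochondrial proteins had medians of -0.33 and -0.08. Among them Coa5, which acts in cytochrome c oxidase assembly, had -0.37 and -0.45, Mrpl30 had -0.31 and -0.16, and Lactb2, a mitochondrial ribonuclease, -0.15 and 0.02. Mitd1, named for a protein domain rather than for mitochondria, was placed in this list too, at -0.23 and 0.13. The list is not complete, since Sdhaf4 and Cox5b were given no role.

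The 9 members of transcription and chromatin had medians of -0.29 and -0.30. Tcea1, the elongation factor TFIIS, had 10658 and 10572 in parental cells, 7912 and 7058 in B04, and 8924 and 9099 in B64. Kansl3, a subunit of the NSL histone acetyltransferase complex, had -0.50 and -0.40, and Phf3, a protein that binds RNA polymerase, -0.24 and -0.25. The 9 members of ubiquitin and protein turnover were below 0 in both clones without exception, with medians of -0.34 and -0.21. Cops5, the catalytic subunit of the COP9 signalosome, had 2133 and 2444, then 1807 and 1860 in B04 and 1777 and 1782 in B64. Vcpip1, a deubiquitinase, had -0.21 and -0.12, and Eloc, elongin C, -0.42 and -0.16.

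The 5 members of DNA maintenance and cell division showed the least shift in B04, at -0.04, with -0.21 in B64. Terf1, a telomere-binding protein, had -0.17 and -0.21, and Bend6, a transcriptional repressor placed in this list, -0.12 and -0.41. The 14 members of membrane traffic and cytoskeleton had medians of -0.19 and -0.18. Among these Dst, the cytolinker dystonin, had -0.19 and -0.12, Actr1b, a dynactin subunit, -0.32 and -0.31, and Tram1, of the protein translocation channel at the endoplasmic reticulum, -0.13 and -0.36. The B64 value of Tram1 reversed to 0.07 with effective lengths as an offset and to 0.11 with limma on log2(TPM + 1). The 11 signalling members had the largest difference between the clones' medians among the lists with at least 5 members, -0.50 in B04 and -0.21 in B64. They include Il1rl2, the receptor of IL-36, at -0.44 and -0.32, and Il18rap, an IL-18 receptor chain, at -0.50 and -0.19.

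Smaller lists held few members each. The 3 channel and transporter genes had medians of -0.26 and -0.62, with Cnnm3 at -0.26 and -0.62 and Mfsd9 at -0.18 and -0.45. The 3 genes listed under extracellular and glycan-modifying proteins were Mgat4a, the semaphorin Sema4c at -0.30 and -0.22, and B3gat2 at 0.57 ± 0.82 (SE) and -0.24 ± 0.86 with few counts. The 4 metabolic genes had medians of -0.18 and -0.13, among them Rdh10, a retinol dehydrogenase, at -0.06 and -0.37. A further 11 members had no assigned role in the lists, Sdhaf4, Cox5b and Hs6st1 among them, and their medians were -0.52 and -0.40.

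The comparison of the clones with each other was not used to choose the block. Its median log2 difference, B64 against B04, was 0.07, with quartiles of -0.07 and 0.23, and 30 of 80 members lay below 0. Without B04 replicate B the median was 0.03. DESeq2 called 16 of the 80 members higher in B64 than in B04, against 13.6% of 12492 genes tested, and 3 (3.75%) lower, against 11.5%. The share called higher was thus above the background and the share called lower under it, without a test of either difference. The count of 19 fell to 12 without B04 replicate A and to 11 without either B64 library, and edgeR called 26. Of the 8 members with the smallest adjusted p among those with a mean count of at least 100, all were higher in B64. The rule's exclusions bear on these counts. Of the genes left out, Mcm3 and Prim2 were called lower in B64 than in B04, at -0.33 ± 0.06 (SE) and -0.31 ± 0.12. Prim2 lost its call with a replicate block and with effective lengths as an offset. Il1rl1, Il1r1 and Imp4 had -0.23, 0.04 and 0.18, without a call.

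Map4k4, a kinase upstream of stress signalling, had 6069 and 5691 in parental cells, 4089 and 4205 in B04, and 5557 and 5493 in B64. B64 stood just under the parental range and B04 well under B64, a log2 difference of 0.41 ± 0.06 (SE, DESeq2 adjusted p = 7.76e-10). Atp6v1h, the H subunit of the vacuolar proton pump, had 1834 and 1853, then 1048 and 1146 in B04 and 1717 and 1574 in B64. The difference between the clones was 0.59 ± 0.09 (DESeq2 adjusted p = 6.17e-09). Atp6v1h overlaps its head-to-head neighbour Rgs20 by 268 bases, and without a stated strand setting the reads of that overlap cannot be assigned. Rgs20, a regulator of G-protein signalling, had 108 and 125, then 51.1 and 55.0, then 88.3 and 87.3, and its difference between the clones, 0.73 ± 0.33, did not pass (DESeq2 adjusted p = 0.0903).

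Hs6st1, a heparan sulfate sulfotransferase, had clones on either side of the parental cells. It had 1222 and 1452 in parental cells, 1094 and 1158 in B04, and 1539 and 1922 in B64, a difference of 0.62 ± 0.12 between the clones (DESeq2 adjusted p = 1.73e-06). Neither clone overlapped the parental libraries. Ube2w, a ubiquitin-conjugating enzyme, had 1583 and 1592, then 859 and 834, then 1187 and 1169, and the clones differed by 0.48 ± 0.10 (DESeq2 adjusted p = 8.11e-06). Fam135a had 1138 and 917, then 546 and 460, then 792 and 772, and differed by 0.63 ± 0.14 (DESeq2 adjusted p = 4.15e-05). In both of these genes B64 lay between B04 and the parental cells.

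Ptp4a1, a phosphatase of the PRL family, had 3271 and 3183, then 2458 and 2393, then 2989 and 3266, so that only B04 stood apart from the parental libraries. Its difference between the clones was 0.37 ± 0.07 (DESeq2 adjusted p = 8.58e-06). Plekhb2, a membrane-binding protein with a pleckstrin domain, had 2011 and 1986, then 1422 and 1407, then 2012 and 1803, a difference of 0.43 ± 0.09 (DESeq2 adjusted p = 8.92e-06). Eif5b, the initiation factor that joins the ribosomal subunits, had 4333 and 3796, then 3017 and 3066, then 3762 and 3899, a difference of 0.33 ± 0.08 (DESeq2 adjusted p = 1.11e-04). For these 3 members B64 overlapped the parental range and B04 did not. Ptp4a1 overlaps a second protein-coding entry of the same name over 9008 bases, and Eif5b overlaps Rev1 by 2794 bases. Their counts depend on how reads of these overlaps were split.

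The 3 members called lower in B64 than in B04 are named after their values were seen, apart from Tram1. Mybl1, a transcription factor of the MYB family, had 327 and 330 in parental cells, 386 and 286 in B04, and 189 and 211 in B64 (difference -0.75 ± 0.20, DESeq2 adjusted p = 0.00122). Ogfrl1 had 471 and 438, then 484 and 512, then 336 and 314 (difference -0.61 ± 0.15, DESeq2 adjusted p = 3.96e-04). The B64 libraries lay under the parental ones in both genes, while B04 straddled them for Mybl1 and lay above them for Ogfrl1. Tram1 had 1860 and 1940, then 1746 and 1726, then 1529 and 1435, a difference of -0.23 ± 0.08 whose call (DESeq2 adjusted p = 0.031) was lost under 9 of 10 other settings tried.

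**Figure D3:**
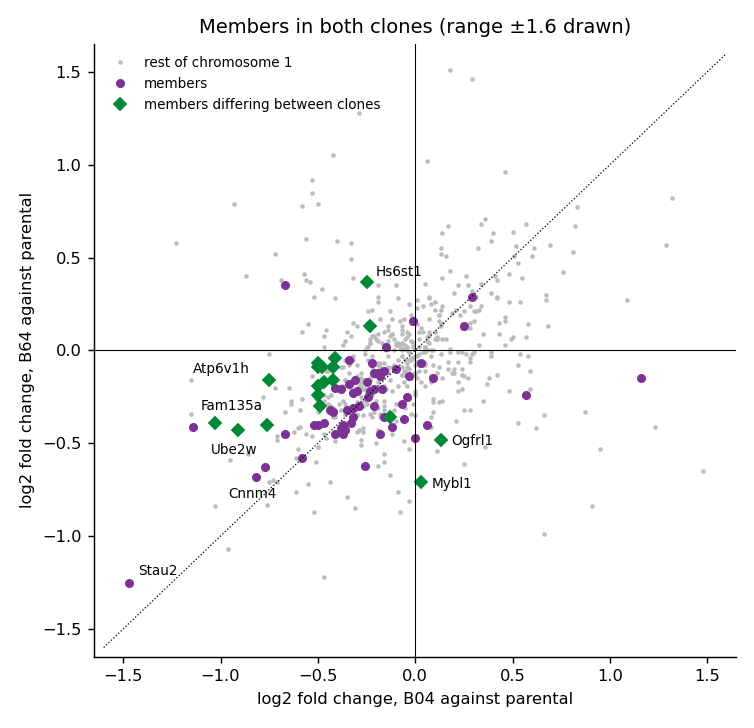
Log2 fold change of each chromosome 1 gene in B04 (x axis) and B64 (y axis) against parental, with members in purple, members called between the clones in green and the rest of the chromosome in grey; the dotted line marks equal values. Most members lie left of and below 0, and 16 of the 19 green points lie above the line.

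**Figure D4:**
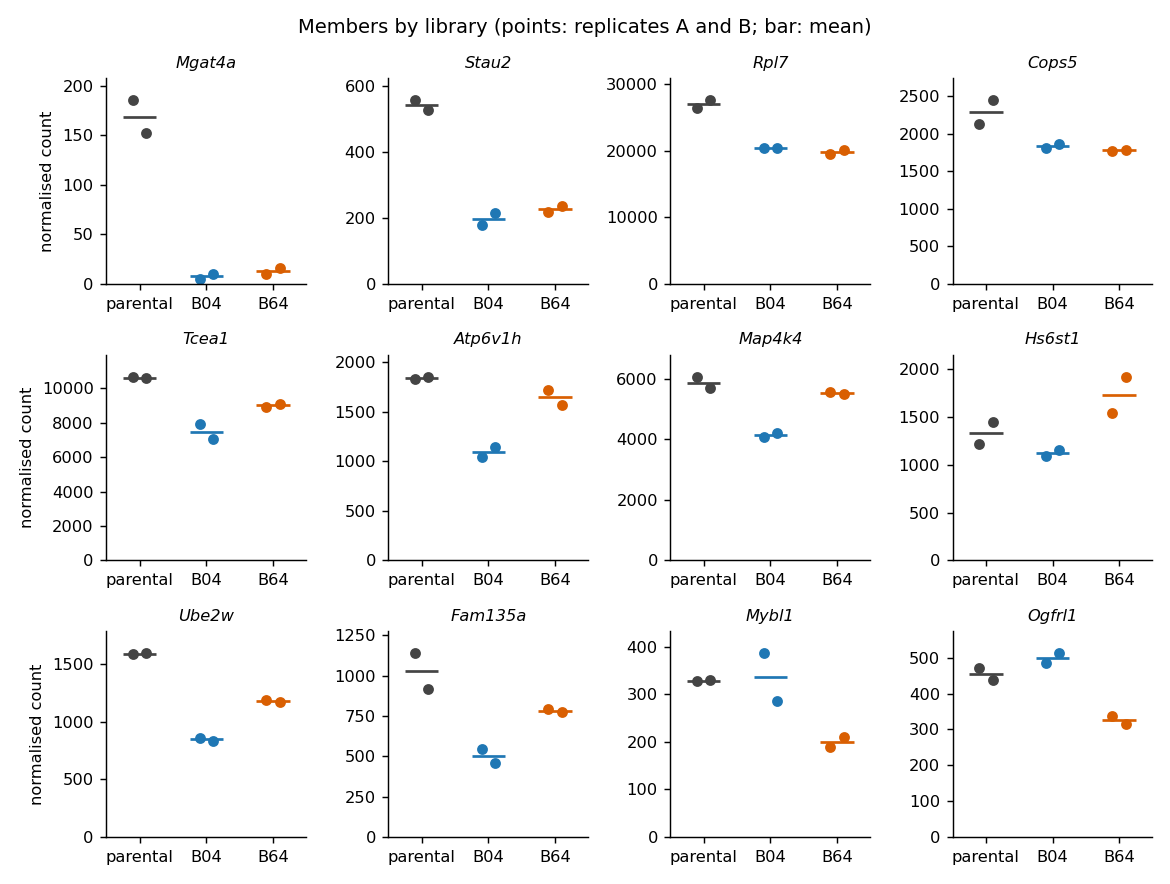
Normalised counts of 12 members in the 6 libraries, with points for replicates A and B and a bar for the mean of each group, each axis starting at 0. Mgat4a and Stau2 are low in both clones, Hs6st1 is high in B64 only, and Mybl1 and Ogfrl1 are low in B64 only.

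The partners of the complexes to which members belong were tested without any part in the rule. In B04 40 of 204 partners were called lower and 10 higher (DESeq2), shares to be read against 13.4% and 11.6% of all genes, and their median log2 fold change was -0.06. In B64 22 were called lower and 11 higher, against 7.69% and 9.16%, with a median of -0.02. Cytosolic ribosomal genes made up 20 of the lower calls in B04 and 16 in B64. Their counts were high, so that small shifts passed: Rpl12, with a mean count of 38800, was called at -0.16 ± 0.05 in B64. The median mean count of the 10948 protein-coding genes was 799. The shares over all genes were not matched for counts. Without B64 replicate A, B64 replicate B or parental replicate B the B64 total of 33 fell to 14, 19 and 18, and without either B04 library the B04 total of 50 fell to 31. The members themselves were chosen for low values in these contrasts, so their values are given beside the partners only for orientation.

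In the COP9 signalosome the 8 partners of Cops5 had medians of -0.08 in B04 and 0.03 in B64. Of the partners, Cops8 was lower in B04 at -0.44 ± 0.10 (SE, DESeq2 adjusted p = 5.74e-05), and Cops7a was higher at 0.17 ± 0.06 (DESeq2 adjusted p = 0.0306). In the NSL complex the 8 partners of Kansl3 had medians of -0.03 and -0.05, and Mcrs1 and Kansl2 rose in B04 by 0.39 ± 0.09 and 0.29 ± 0.07 (DESeq2 adjusted p = 1.24e-04 and 5.22e-04). The 6 shelterin partners of Terf1 had 0.18 and 0.03, with Tinf2 called higher in B04 at 0.39 ± 0.12 (DESeq2 adjusted p = 0.00418). The 4 partners of Rb1cc1 in the ULK1 autophagy complex had 0.10 and -0.06, with no call in either clone by DESeq2.

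In the ribosomes the partners outnumber the members. The 79 tested cytosolic ribosomal partners had medians of -0.09 and -0.06, with 20 called lower and 1 higher in B04 and 16 and 1 in B64. Rpl37a was the lowest, at -0.50 ± 0.06 in B04 and -0.52 ± 0.06 in B64 (DESeq2 adjusted p = 2.44e-16 and 3.15e-17). Rpl12 was lower as well, at -0.32 ± 0.05 in B04 and -0.16 ± 0.05 in B64 (DESeq2 adjusted p = 9.2e-10 and 0.00558). The 75 mitochondrial ribosomal partners had -0.01 and 0.01, with 9 lower and 4 higher in B04 and 2 lower and 5 higher in B64. Mrps35 rose in B64 by 0.69 ± 0.12 and Mrpl24 by 0.44 ± 0.08 (DESeq2 adjusted p = 1.08e-07 and 5.77e-07). The 10 CCR4-NOT partners of Cnot11 had -0.06 and -0.07, with Cnot9 called lower in both clones, at -0.23 and -0.34. The 7 elongin and cullin partners of Eloc had -0.20 and -0.04, with Cul5 lower in B04 at -0.46 ± 0.09 and Rbx1 higher in both.

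Of the 204 partners, 6 lie on chromosome 1 outside the block, a split made after the values were seen. They had medians of -0.34 and -0.26, with 4 called lower in B04 and 3 in B64, and Cops8, Rpl37a and Cnot9 are among them. The 5 of them that start between 72711290 and 90602981, within the stretch of lowered windows, ranged from -0.50 to -0.23 in B04 and from -0.52 to -0.21 in B64, and the last, Mrps14, had -0.15 and -0.10. The 198 partners on other chromosomes had -0.04 and -0.02, with 36 called lower and 10 higher in B04 and 19 and 11 in B64. Lowered partners were thus not confined to chromosome 1. On chromosome 3, where 535 genes had a median of -0.18 in B04, Rpl22l1 and Mrpl9 had -0.41 and -0.38 in that clone. In B64 Atp6v1e1, on chromosome 6, had -0.35.

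The V1 sector of the vacuolar proton pump had the largest median difference between the clones among the 9 sets of partners, a comparison chosen after the values were seen. All 7 partners of Atp6v1h lie on other chromosomes. In B04 their median was -0.33 and 5 were called lower, among them Atp6v1b2 at -0.52 ± 0.06 and Atp6v1e1 at -0.49 ± 0.08 (DESeq2 adjusted p = 2.19e-14 and 5.84e-08). In B64 their median was 0.21, with 4 called higher and 1, Atp6v1e1, lower. Between the clones the median difference was 0.56, all 7 were above 0, and 5 were called higher in B64 by DESeq2, against 13.6% of all genes. The 5 calls became 0 with limma on log2(TPM + 0.1) without a filter on low values. Atp6v1b2, a subunit of the nucleotide-binding ring, had 4133 and 4147 in parental cells, 2916 and 2846 in B04, and 4396 and 4547 in B64, a difference of 0.63 ± 0.06 (DESeq2 adjusted p = 4.3e-21). The elongin and cullin partners of Eloc had a median difference of 0.17, with 6 of 7 above 0, 2 called higher and 1 lower, and Eloc itself differed by 0.25. Over the 204 partners the median difference was 0.04.

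**Figure D5:**
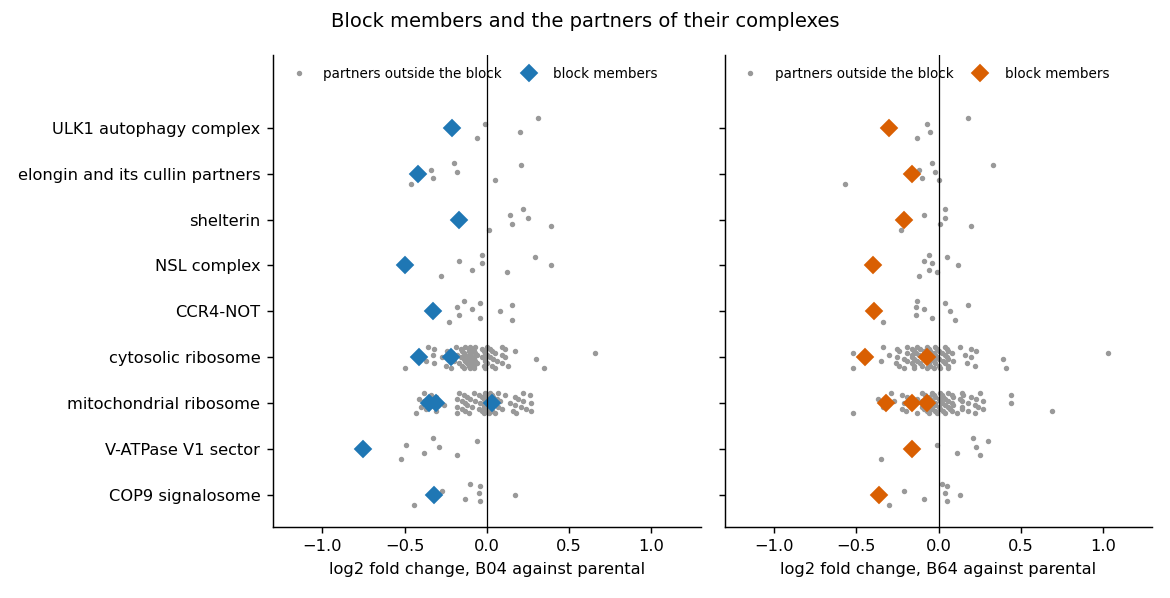
Log2 fold change against parental in B04 (left) and B64 (right) of block members (diamonds) and of the partners of their complexes outside the block (grey points, spread vertically for legibility). The V1 sector partners lie below 0 in B04 and mostly above 0 in B64, with medians of -0.33 and 0.21.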

How the data were processed

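RNA-seq was analysed from 6 libraries, 2 each of parental CT26, B04 and B64. The deposited files hold, per gene, expected counts and TPM that the authors made with STAR and RSEM on mm10; the annotation release and strand setting are not given in the sources used here. Of 53801 gene IDs, 99.7% matched GENCODE M21, which gave names and coordinates.

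After rounding, the expected counts were fitted with DESeq2 1.42.0 (R 4.3.3), group as the only term, over all 6 libraries, following the study's use of DESeq2. Calls had a Benjamini-Hochberg adjusted p under 0.05 over all genes. Fold changes are unshrunken, and normalised counts are divided by DESeq2 size factors. Deposited TPM served for levels and alternatives. Alternatives were edgeR 4.0.16 quasi-likelihood, limma 3.58.1 on log2(TPM + 1), other filters, GC and length trends, a replicate block, and leaving out each library. The fits were tested on simulated data.

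Genes named by rule were the 3 most abundant members per role, the edges, the genes left out, and up to 2 partners per complex. Among members with a mean count of at least 100, the rule also took the 6 lowest and 4 highest by mean fold change. The 8 smallest adjusted p between the clones were taken from the same members. Some others are marked as chosen after their values were seen. Il1rl2, Il18rap, Rgs20, Unc50, Cox5b, Pcmtd1, Mitd1, Rpl22l1 and Mrpl9 were also named outside this rule. The members, roles and complexes were chosen with earlier results of these data known. Sequences are from RefSeq.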

Additional observations from a re-analysis of the deposited data

Results flagged for a closer look

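By the direct DESeq2 test of B64 against B04, adjusted over all genes, 11 of the members named by rule differed between the clones. In 10 of them B64 was the higher clone: the log2 difference was 0.62 for Hs6st1, 0.63 for Fam135a, 0.59 for Atp6v1h, 0.48 for Ube2w, 0.43 for Plekhb2, 0.41 for Map4k4, 0.37 for Ptp4a1, 0.33 for Eif5b, 0.27 for Tcea1 and 0.25 for Eloc. For Tram1 it was -0.23. Of the members named outside the rule, Mybl1 and Ogfrl1 were called lower in B64, at -0.75 and -0.61, and Il18rap higher, at 0.31. In the whole block 16 members were called higher and 3 lower. The calls of Hs6st1, Atp6v1h, Ube2w, Plekhb2 and Ptp4a1 held under all 10 alternatives tried, and those of Map4k4, Fam135a, Eif5b and Tcea1 under 9, the exception being limma on log2(TPM + 1). Eloc kept its call under 2 of 10 alternatives and Tram1 under 1. The fragment lengths of the B64 libraries and of B04 replicate B were shorter than that of B04 replicate A. Effective lengths as an offset and limma on TPM both take these lengths into account. With the offset Eloc and Tram1 lost their calls, and the others of the 11 kept theirs. The part of fragment length in these differences was not tested beyond these alternatives and leaving out each library.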

How the results depend on the processing

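The block medians kept their sign under every alternative run. The B04 median moved from -0.32 to -0.23 with log2(TPM + 1), -0.25 with log2(TPM + 0.1) and -0.29 with GC and length trends removed. The B64 median moved from -0.25 to -0.16, -0.18 and -0.22. On the TPM scales the median of all protein-coding genes moved as well, to 0.06 and 0.07 in B04 and 0.03 and 0.04 in B64. The block's difference from that median was -0.29 and -0.32 in B04, against -0.31 in the main fit. In B64 it was -0.19 and -0.22, against -0.24. Leaving out 1 library gave -0.36 to -0.31 in B04, -0.28 to -0.23 in B64 and 0.03 to 0.08 between the clones, 0.03 without B04 replicate B. Members called were 40, 28 and 19 for B04, B64 and B64 against B04, and 22, 13 and 11 with limma on log2(TPM + 1), which tested 72 of the 80. Leaving out 1 library gave 28 to 35, 16 to 27 and 11 to 15. Partners called, 50 and 33, became 20 and 14 with limma, and 31 to 42 and 14 to 32 when 1 library was left out. With a replicate block the members called were 35, 24 and 13 and the partners 41 and 31; letters A and B share only a name, since same-letter deviations correlated at 0.03, -0.01 and -0.04 over 10948 genes. Tram1 in B64 against parental reversed to 0.07 with effective lengths as an offset and 0.11 with limma; the cause was not tested. The 5 calls among V1 partners between the clones became 4 with the offset and with filtered limma and 0 with limma on log2(TPM + 0.1) without a filter, and otherwise stayed at 5. With 2 libraries per group, a member that missed the threshold is not shown to be equal, and members under about 100 counts have standard errors too wide for shifts of the block's size.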
